A study of Mus musculus with 24 samples.

Results

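Nfe2l2, the gene of the transcription factor NRF2, and 9 genes known as NRF2 targets were followed across 24 mouse liver libraries. The targets were Nqo1, Gclc, Gclm, Srxn1, Txnrd1, G6pdx, Slc7a11, Osgin1 and Me1. The 10 genes were picked by symbol, and each symbol was found at 1 entry of the expression tables, which hold 24339 genes after cleaning. Of the 10, 9 passed a filter on low values (at least 1 FPKM in at least 3 libraries), as did 12282 genes in all. FPKM is fragments per kilobase of transcript, scaled to the mapped fragments of the library, so levels of different genes are on a per-length scale. Slc7a11 did not pass and is described apart.

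In an unstressed cell NRF2 is held by KEAP1, an adaptor of a CUL3 ubiquitin ligase, and is degraded. Oxidants and electrophiles modify KEAP1, after which NRF2 builds up, pairs with a small MAF protein and binds antioxidant response elements near its targets. In liver it is known for raising genes of glutathione synthesis, quinone reduction, the thioredoxin system, NADPH supply and efflux of conjugates. Much of this control acts on the NRF2 protein, which RNA sequencing does not measure.

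All mice were C57BL/6 by the labels, and all RNA came from liver. At day 5 and at day 60 of age, wild type (WT) mice given TCPOBOP stood against WT mice given corn oil. At the same ages, hCAR-TG mice, a human CAR knock-in, given CITCO stood against hCAR-TG mice given corn oil, which makes 8 groups of 3 libraries. CAR, the constitutive androstane receptor, is a nuclear receptor that switches on drug metabolism in hepatocytes. TCPOBOP activates mouse CAR and CITCO activates human CAR. Ligand and receptor species change together, so their shares in a difference between the CITCO and TCPOBOP responses cannot be told apart. The labels state no dose, no route, no sex and no source animal for a replicate, so p-values measure the spread between these samples, which may be technical. In bulk RNA, fewer cells of a type and less RNA per cell cannot be told apart.

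The libraries carried FPKM totals of 451546 to 502499, and reads per library were not used here, so absolute depth is unknown. Cyp2b10, the P450 gene read most often as a sign of active CAR, was higher with the ligand in each of the 4 settings. The lowest ligand group was CITCO in hCAR-TG livers at day 5, with 435 ± 28.0 FPKM against 2.81 ± 2.13 FPKM with corn oil (SD, n = 3 each). The highest was TCPOBOP in WT livers at day 60, with 2596 ± 180 FPKM against 12.9 ± 4.16 FPKM with corn oil. At day 60 the hCAR-TG corn oil group already stood at 225 ± 16.5 FPKM, and the CITCO group at 1226 ± 31.0 FPKM. The CITCO change of Cyp2b10 at day 60 thus started from a higher corn oil level than in WT livers. The part of that level in the CITCO responses of the members was not tested. Nr1i3, the mouse gene of CAR, stood in the corn oil groups at 22.2 ± 4.78 FPKM in hCAR-TG and 58.0 ± 12.8 FPKM in WT livers at day 5, and at 8.70 ± 1.56 FPKM in hCAR-TG and 68.2 ± 12.9 FPKM in WT livers at day 60. How reads of the human sequence were counted is not given in the sources used here, so these values do not measure human CAR. Hepatocyte markers were high in all libraries (summed 22590 to 74500 FPKM over 5 genes). Transcripts of other organs were present at day 5. Summed pancreas markers reached 277 FPKM in 1 TCPOBOP library of WT mice, 252 FPKM in 1 CITCO library, 188 FPKM in 1 corn oil library of WT mice and 16.1 FPKM at most in corn oil libraries of hCAR-TG mice, and were at most 0.761 FPKM at day 60. The intestinal defensin gene Defa24 stood at 3.03, 5.95 and 14.4 FPKM in the day 5 corn oil libraries of hCAR-TG mice. It was at most 0.495 FPKM in the other day 5 libraries. Of the other intestine markers, Lypd8, Spink4, Vil1 and Muc2 also had their highest day 5 mean in hCAR-TG corn oil livers. Spink4 still reached 4.41 FPKM in 1 TCPOBOP library. Fabp2 went the other way at day 5, with 36.3 to 57.3 FPKM in those livers and 82.1 to 118 FPKM in WT TCPOBOP livers. These 6 markers summed to 69.1 to 90.5 FPKM in hCAR-TG corn oil libraries and 83.3 to 123 FPKM in WT TCPOBOP libraries.

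All 10 members are protein coding genes, 9 on autosomes and G6pdx on the X chromosome, with coordinates in mm10. Positions run 2:75675519-75704641 for Nfe2l2, 8:107388225-107403205 for Nqo1, 9:77754535-77794489 for Gclc, 3:122245557-122267215 for Gclm and 2:152105524-152111376 for Srxn1. Those of the others are 10:82833951-82897724 for Txnrd1, X:74409486-74429161 for G6pdx, 3:50364936-50443613 for Slc7a11, 8:119437162-119446256 for Osgin1 and 9:86581363-86695914 for Me1. G6pdx overlaps Ikbkg on the opposite strand over 19676 bases, and Ikbkg itself stood at 6.18 to 15.3 FPKM. Libraries were stranded, but whether the authors' counting used the strand is not given in the sources used here, so the level of G6pdx is uncertain. G6pd2, a close copy of G6pdx without introns, was at most 0.0567 FPKM.

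Promoters of the members were read for the core of the antioxidant response element, TGACNNNGC on either strand, because NRF2 binds such elements. The windows were 250 bases before to 50 after each RefSeq start (GRCm38.p6). A promoter was found for 9 members (12 starts, since Txnrd1 and Me1 have several), and 6 of the 12 held a match. Of all 32851 promoters of that length, 4071 (12.4%) did. The matches are shown 5′ to 3′ on the gene's strand, with the matching letters in capitals; for Nqo1, which held none, the 120 bases before the start are shown.
Nfe2l2 (chr2:75704850-75704913, minus strand): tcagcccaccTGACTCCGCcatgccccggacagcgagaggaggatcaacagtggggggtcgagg
Gclm (chr3:122245378-122245476, plus strand): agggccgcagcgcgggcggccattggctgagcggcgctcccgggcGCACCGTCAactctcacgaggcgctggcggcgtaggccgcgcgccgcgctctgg
Srxn1 (chr2:152105542-152105570, plus strand): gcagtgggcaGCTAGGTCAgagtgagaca
Txnrd1, second start (chr10:82859069-82859167, plus strand): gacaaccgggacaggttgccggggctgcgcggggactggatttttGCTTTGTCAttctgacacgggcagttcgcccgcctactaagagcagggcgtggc
G6pdx (chrX:74428884-74428982, minus strand): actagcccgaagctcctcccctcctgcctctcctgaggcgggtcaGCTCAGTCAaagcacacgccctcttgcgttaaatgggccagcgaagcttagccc
Me1 (chr9:86695905-86695965, minus strand): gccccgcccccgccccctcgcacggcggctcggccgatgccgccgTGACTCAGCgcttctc
Nqo1 (chr8:107403206-107403325, minus strand): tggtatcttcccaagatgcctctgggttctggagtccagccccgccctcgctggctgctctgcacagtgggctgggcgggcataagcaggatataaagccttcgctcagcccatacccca
Positions count from the start at 1, with bases before it negative. The match lay at -240 to -232 in Nfe2l2, -134 to -126 in Gclm, 29 to 37 in Srxn1, -92 to -84 in Txnrd1, -57 to -49 in G6pdx and -6 to 3 in Me1. The Me1 letters, TGACTCAGC, also contain the AP-1 motif TGACTCA and were found in 149 promoters (0.454%). Promoters with a match belonged to genes called higher with TCPOBOP at both ages (Gclm, Srxn1, Txnrd1, Me1). They also belonged to Nfe2l2, called higher with TCPOBOP at day 60 but not at day 5, and to G6pdx, called with TCPOBOP at neither age. Nqo1 rose with TCPOBOP at both ages without a match in this window. Osgin1, called with TCPOBOP at neither age, and Slc7a11, which did not pass the filter, held no match either. Nor did the other starts of Txnrd1 and Me1. No promoter was found for Gclc. The matches are of letters and were not tested as binding sites.

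Levels spread widely between members. Osgin1, which encodes a regulator of cell growth induced by oxidative stress, had the highest group mean in each of the 8 groups (159 to 239 FPKM) and 107 to 305 FPKM in single libraries. Gclc and Gclm stood at 49.1 to 121 FPKM and came next by group mean, except that Me1 (139 FPKM) stood above both in WT livers given TCPOBOP at day 60, and Slc7a11 was the least abundant at 0.0190 to 0.131 FPKM. Values of every library are in the plot of FPKM by group.

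**Figure D1:**
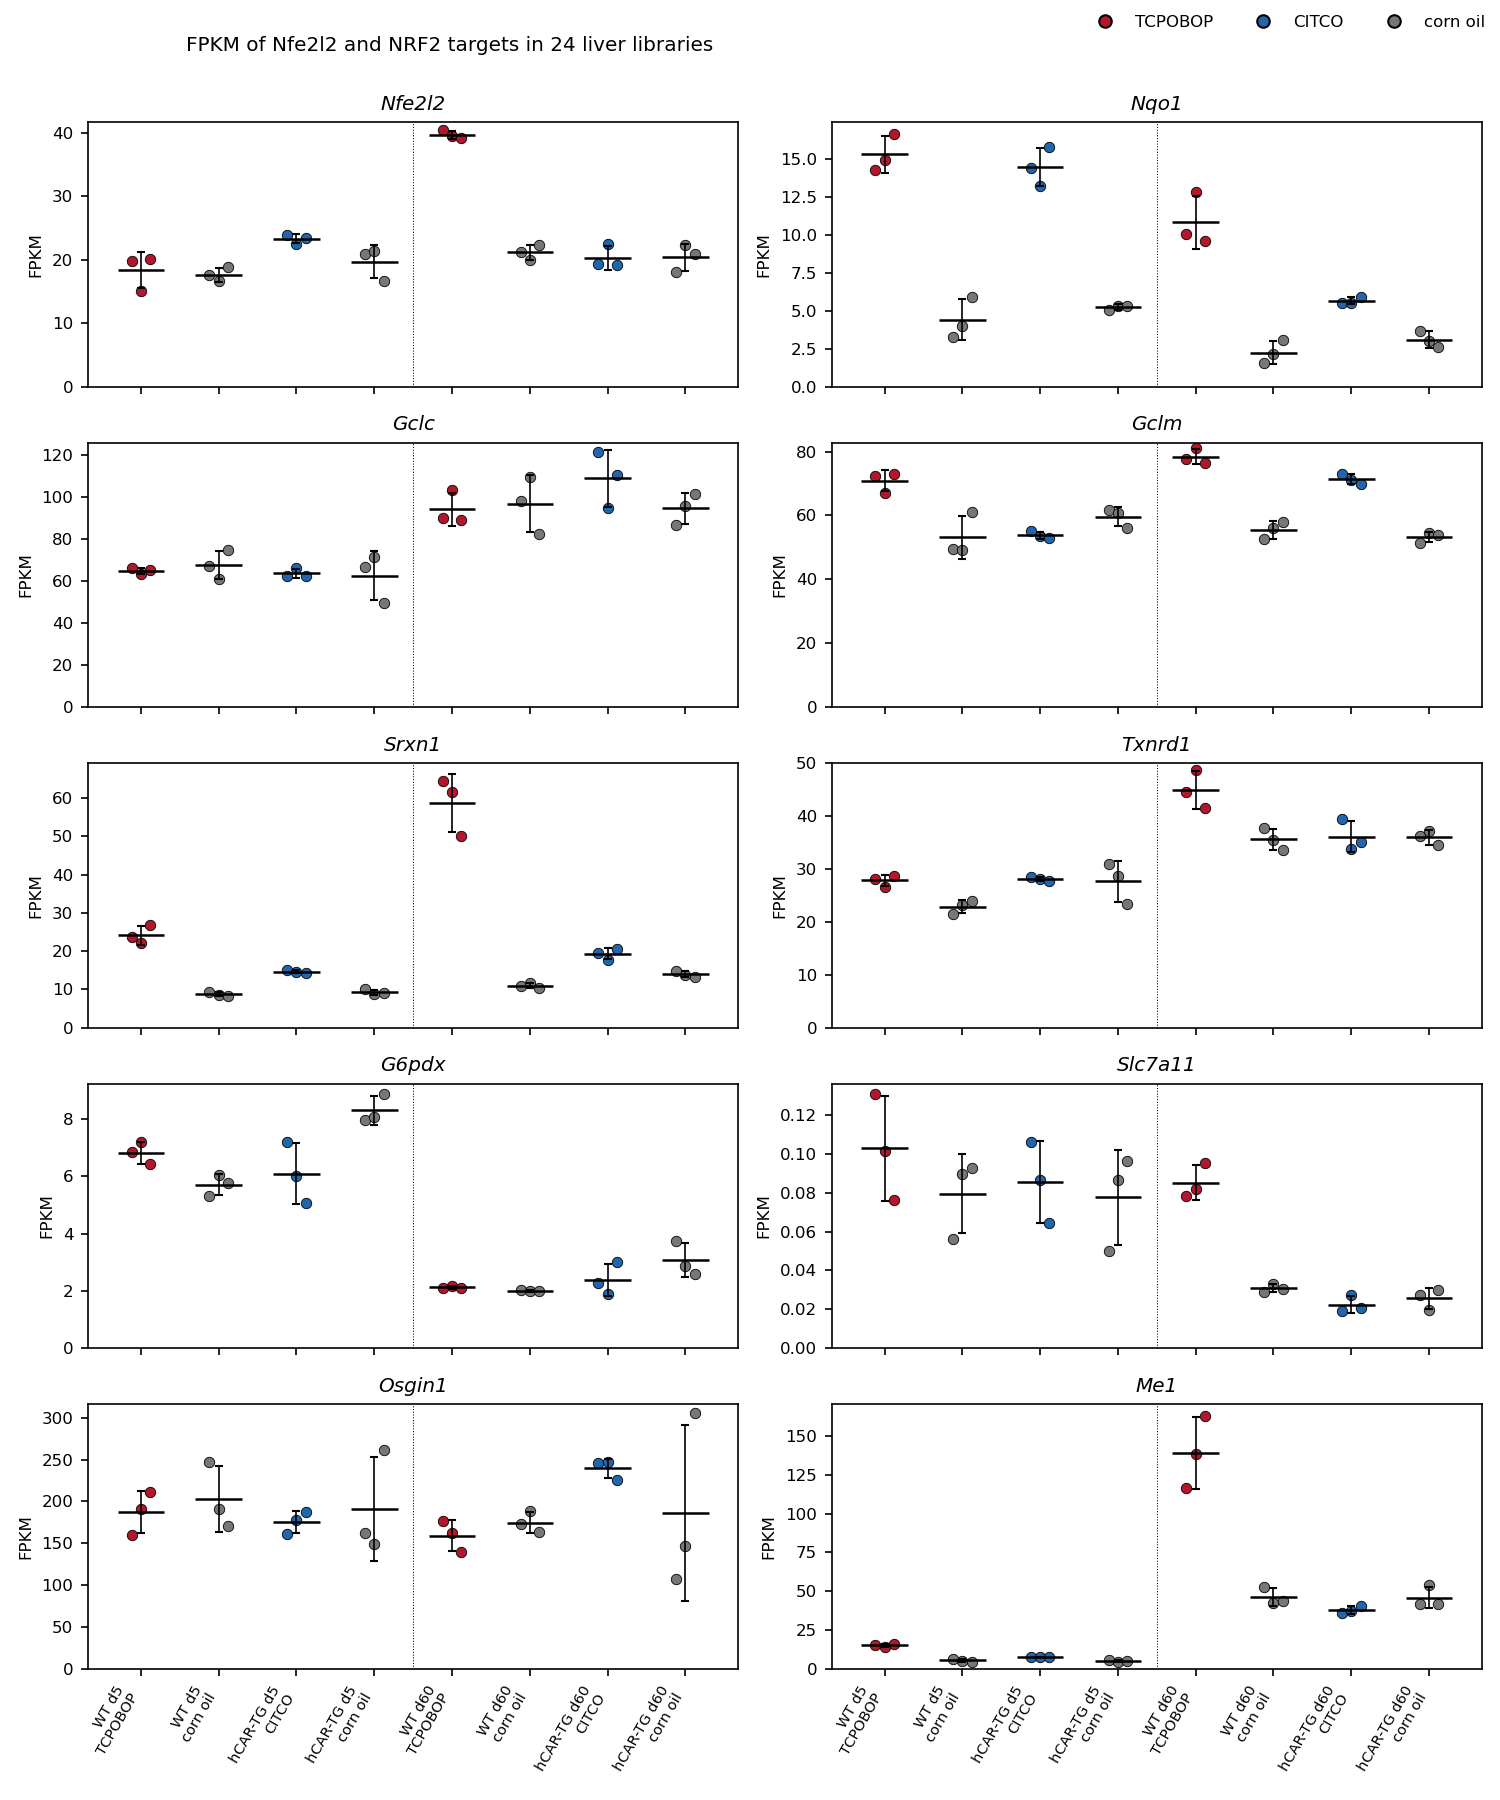
FPKM of the 10 members in each library (points), with the group mean and SD (n = 3) as lines; ligand groups stand left of their corn oil group, and the dotted line parts day 5 from day 60. Nfe2l2 lies near 40 FPKM in WT livers given TCPOBOP at day 60 and between 15.1 and 23.95 FPKM in all others, while Nqo1 and Srxn1 stand above corn oil with both ligands at both ages.

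Each ligand was compared with corn oil by limma on log2(FPKM + 1), with p-values adjusted over the 12282 genes tested. An adjusted p under 0.05 was a call. Log2 changes below are of FPKM + 1, ligand minus corn oil, ± SE. In WT livers at day 60, TCPOBOP raised 6 of the 9 tested members (Nfe2l2, Nqo1, Srxn1, Me1, Gclm and Txnrd1), and the other 3 were not called. Their median log2 change was 0.49. Over all tested genes 31.4% rose and 15.8% fell in this comparison, with a median of 0.06. In WT livers at day 5, TCPOBOP raised 5 of the 9 (Nqo1, Srxn1, Me1, Gclm and Txnrd1), with a median of 0.27, beside 24.6% of all tested genes higher, 11.3% lower and a median of 0.04. The groups did not overlap for 7 of the 9 members at day 60 and 6 at day 5, as for 60% and 47.6% of all tested genes. Rescaling the libraries by median of ratios changed the balance over all called genes (at day 60 51% against 66.5% higher, at day 5 53.4% against 68.6%) and left the member calls as they were. The digit that closes the read file names, whose meaning the labels do not give, was 4 in all TCPOBOP libraries and 3 in all corn oil libraries of WT mice at day 5, so it cannot be told apart from treatment there. No digit is shared by the corn oil groups of the 2 ages in either genotype, or of the 2 genotypes at either age. With the digit as a factor, age in hCAR-TG livers and genotype at day 5 cannot be estimated, and age in WT livers and genotype at day 60 only through other groups.

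In hCAR-TG livers at day 5, CITCO raised 3 of the 9 tested members (Nqo1, Srxn1 and Me1), where 8.27% of all tested genes rose. G6pdx fell, as did 8.82% of all tested genes. At day 60 CITCO raised 3 (Nqo1, Srxn1 and Gclm), where 4.4% of all tested genes rose and 3.97% fell. The groups did not overlap for 6 members at day 5 and 4 at day 60, as for 35% and 31.9% of all tested genes. The members' median log2 changes were 0.04 at day 5 and 0.20 at day 60, beside 0.01 and -0.00 over all tested genes. Nqo1 and Srxn1 were the members called higher in all 4 ligand comparisons, and Gclc and Osgin1 were called in none of the 4.

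**Figure D2:**
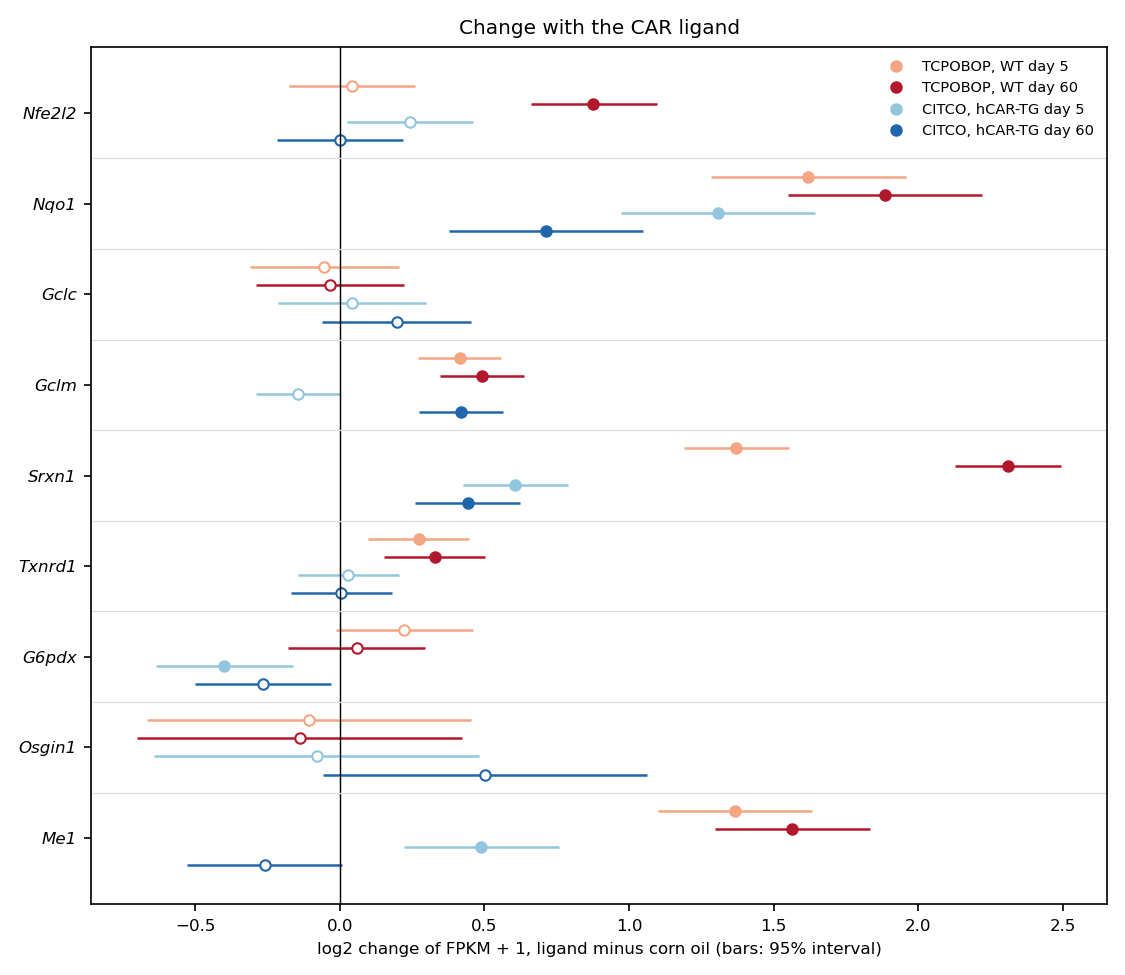
Log2 change of FPKM + 1, ligand minus corn oil, for the 9 tested members (rows) in the 4 settings (colours), with 95% intervals; filled points are calls at limma adjusted p under 0.05 and open points are not. Nqo1 and Srxn1 are filled in all 4 settings, and Nfe2l2 is filled only for TCPOBOP in WT livers at day 60, at 0.88.

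The gene of NRF2 itself was called in 1 of the 4 settings, and under single alternatives in 2 more. Nfe2l2 stood at 40.5, 39.5 and 39.1 FPKM in WT livers given TCPOBOP at day 60, against 21.2, 20.0 and 22.4 FPKM in those given corn oil. The 3 TCPOBOP libraries lay above every other library of the series. The log2 change was 0.88 ± 0.10 (limma adjusted p = 4.2e-07), a ratio of mean FPKM of 1.87. In WT livers at day 5 it stood at 19.8, 15.1 and 20.2 FPKM with TCPOBOP, against 17.6, 16.6 and 18.8 FPKM with corn oil. These groups overlapped, and the change was 0.04 ± 0.10 (limma adjusted p = 0.791, 95% interval -0.18 to 0.26), though it was called with array weights (0.21, limma adjusted p = 0.00988). After CITCO at day 5 the hCAR-TG livers had 23.95, 22.5 and 23.4 FPKM, against 20.9, 21.4 and 16.7 FPKM with corn oil. The groups did not overlap, as in 35% of all tested genes, and the change of 0.24 ± 0.10 was not called (limma adjusted p = 0.106). It was called with the closing digit of the read file names as a factor (0.46, limma adjusted p = 0.0109), where hCAR-TG corn oil replicate 3 is the only corn oil library of that group with the digit of the CITCO libraries. At day 60 they had 19.3, 22.5 and 19.2 FPKM with CITCO, against 18.0, 22.3 and 20.9 FPKM with corn oil, with a 95% interval of the change from -0.22 to 0.22. By group mean, WT with TCPOBOP at day 60 (39.7 FPKM) was followed by hCAR-TG with CITCO at day 5 (23.3 FPKM), and the ranges of neighbours overlapped among the other 6 groups (means 17.7 to 21.2 FPKM).

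Markers of cell types moved with TCPOBOP as well. In WT livers at day 5, summed hepatocyte markers stood at 54520 to 58730 FPKM with TCPOBOP, against 73180 to 74500 FPKM with corn oil, with 2 of 5 called higher and 2 lower. Summed stellate cell markers were 139 to 162 FPKM with TCPOBOP, against 226 to 245 FPKM with corn oil (5 of 6 lower). Summed Kupffer cell markers were 390 to 513 FPKM with TCPOBOP, against 313 to 341 FPKM with corn oil (3 of 6 higher). Beside the rise of Nfe2l2 in WT livers at day 60, the summed hepatocyte markers stood at 22590 to 24710 FPKM with TCPOBOP, against 39010 to 46940 FPKM with corn oil, and 4 of the 5 (among them Alb, the albumin gene) fell. All 12 listed cell cycle genes rose there (median log2 change 2.86). Summed erythroid markers were 422 to 815 FPKM with TCPOBOP, against 843 to 1163 FPKM with corn oil. The part of these changes in the members' levels was not tested. Rescaling, after which 6 members were called higher at day 60, applies the same factor to all genes of a library. It therefore cannot account for a change of cell types.

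Nqo1 encodes a quinone reductase that spares cells the radical products of quinones and is the classic readout of NRF2. In WT livers at day 5 it stood at 14.3, 14.9 and 16.7 FPKM with TCPOBOP, against 3.27, 4.02 and 5.91 FPKM with corn oil. At day 60 the WT livers had 10.1, 12.8 and 9.56 FPKM with TCPOBOP, against 1.52, 2.13 and 3.05 FPKM with corn oil. The groups were far apart at both ages, with log2 changes of 1.62 ± 0.16 at day 5 (limma adjusted p = 8.02e-08) and 1.89 ± 0.16 at day 60 (limma adjusted p = 3.8e-09). The ratios of mean FPKM were 3.48 and 4.84. With CITCO the hCAR-TG livers had 14.4, 13.2 and 15.8 FPKM at day 5, against 5.03, 5.34 and 5.33 FPKM with corn oil (1.31 ± 0.16, limma adjusted p = 1.08e-05). At day 60 they had 5.53, 5.52 and 5.91 FPKM with CITCO, against 3.67, 3.01 and 2.58 FPKM with corn oil (0.71 ± 0.16, limma adjusted p = 0.00638). The groups did not overlap here either. The day 60 CITCO call was lost when the closing digit of the read file names was fitted as a factor (0.69, limma adjusted p = 0.136). In the order of group means of Nqo1, both ligand groups of day 5 came first with overlapping ranges, then WT with TCPOBOP at day 60 (9.56 to 12.8 FPKM), then hCAR-TG with CITCO at day 60 and the corn oil groups, all below 6.

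The thioredoxin system keeps protein thiols reduced. Srxn1 encodes sulfiredoxin, which repairs over-oxidised peroxiredoxins. In WT livers it reached 64.4, 61.5 and 50.01 FPKM with TCPOBOP at day 60, against 10.9, 11.5 and 10.4 FPKM with corn oil. At day 5 it stood at 23.6, 22.0 and 26.8 FPKM with TCPOBOP, against 9.23, 8.51 and 8.34 FPKM with corn oil. This was the member with the largest log2 change of all in the 4 settings, 2.31 ± 0.09 at day 60 (limma adjusted p = 7.54e-15), and it changed by 1.37 ± 0.09 at day 5 (limma adjusted p = 7.32e-11). In hCAR-TG livers at day 5 it stood at 15.1, 14.5 and 14.2 FPKM with CITCO, against 10.01, 8.90 and 8.91 FPKM with corn oil (0.61 ± 0.09, limma adjusted p = 6.42e-05). At day 60 the hCAR-TG livers had 19.6, 17.7 and 20.6 FPKM with CITCO, against 14.8, 13.8 and 13.3 FPKM with corn oil (0.44 ± 0.09, limma adjusted p = 0.00219). None of the 4 pairs of groups overlapped. The order of means ran from WT with TCPOBOP at day 60 (58.7 FPKM) and day 5 (24.1 FPKM) through CITCO at day 60 (19.3 FPKM) to the remaining 5 groups at 8.69 to 14.6 FPKM. Among those 5, CITCO at day 5 overlapped the hCAR-TG corn oil group of day 60, and both corn oil groups of day 5 overlapped.

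Txnrd1, the gene of cytosolic thioredoxin reductase, moved less. It stood at 28.1, 26.7 and 28.8 FPKM with TCPOBOP in WT livers at day 5, against 21.6, 23.1 and 24 FPKM with corn oil (0.27 ± 0.08, limma adjusted p = 0.0132). The day 60 livers had 44.6, 48.7 and 41.6 FPKM with TCPOBOP, against 37.7, 35.5 and 33.6 FPKM with corn oil (0.33 ± 0.08, limma adjusted p = 0.0024). Neither pair of groups overlapped, though the day 5 call was lost without WT corn oil replicate 1 (0.23, limma adjusted p = 0.0667). With CITCO the groups overlapped at both ages, and the 95% intervals of the change were -0.14 to 0.20 at day 5 and -0.17 to 0.18 at day 60.

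Glutamate cysteine ligase makes the first and limiting step of glutathione synthesis, with Gclc as its catalytic and Gclm as its modifier subunit. Gclm stood at 72.4, 67.1 and 73.0 FPKM with TCPOBOP in WT livers at day 5, against 49.4, 49.1 and 60.9 FPKM with corn oil (0.41 ± 0.07, limma adjusted p = 6.64e-05). The WT livers of day 60 had 77.6, 81.1 and 76.5 FPKM with TCPOBOP, against 52.5, 56.0 and 58.0 FPKM with corn oil (0.49 ± 0.07, limma adjusted p = 4.28e-06). With CITCO at day 60 the hCAR-TG livers had 73.1, 71.1 and 69.8 FPKM, against 51.3, 54.5 and 53.7 FPKM with corn oil (0.42 ± 0.07, limma adjusted p = 0.000455). The 3 ligand groups lay wholly above their corn oil groups, at ratios of mean FPKM of 1.33 to 1.41. With CITCO at day 5 the order was the other way, 55.0, 53.5 and 52.8 FPKM with CITCO against 61.8, 60.9 and 56.1 FPKM with corn oil. That difference of -0.15 ± 0.07 was not called (limma adjusted p = 0.144), but was with array weights (-0.18, limma adjusted p = 0.000609). Gclc was not called with either ligand at either age. Its group means were 63.5 to 108.6 FPKM with a ligand and 62.4 to 96.6 FPKM with corn oil, all 4 pairs of groups overlapped, and the 95% interval that reached furthest from 0, that of CITCO at day 60, ran from -0.06 to 0.45. With the closing digit of the read file names as a factor, Gclc was called for CITCO at day 5 (0.36, limma adjusted p = 0.0403).

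NADPH pays for these reductions. Me1, the cytosolic malic enzyme that makes NADPH from malate, stood at 15.2, 14.1 and 15.8 FPKM with TCPOBOP in WT livers at day 5, against 6.43, 5.12 and 4.29 FPKM with corn oil (1.37 ± 0.13, limma adjusted p = 3.02e-08). At day 60 it stood at 116, 138 and 163 FPKM with TCPOBOP, against 52.6, 42.4 and 43.3 FPKM with corn oil (1.57 ± 0.13, limma adjusted p = 1.7e-09). The ratios of mean FPKM were close at both ages, 2.85 at day 5 and 3.02 at day 60, on corn oil levels that were themselves far higher at day 60. With CITCO at day 5 Me1 stood at 7.54, 7.69 and 7.18 FPKM, against 5.47, 4.48 and 5.18 FPKM with corn oil (0.49 ± 0.13, limma adjusted p = 0.0119). At day 60 it stood at 36.0, 36.8 and 40.4 FPKM with CITCO in hCAR-TG livers, against 41.5, 53.7 and 41.9 FPKM with corn oil (-0.26 ± 0.13, limma adjusted p = 0.246). The CITCO groups lay above corn oil at day 5 and below it at day 60, without overlap. The day 5 CITCO call was lost without 4 of the day 5 libraries that carried pancreas or intestine transcripts (0.50, limma adjusted p = 0.0668).

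G6pdx, glucose-6-phosphate dehydrogenase, opens the pentose phosphate pathway. In hCAR-TG livers at day 5 it stood at 7.19, 6.03 and 5.08 FPKM with CITCO, against 7.96, 8.06 and 8.89 FPKM with corn oil, a log2 change of -0.40 ± 0.11 (limma adjusted p = 0.0181). The groups did not overlap, but the call was lost without hCAR-TG corn oil replicate 3 (limma adjusted p = 0.0569), CITCO replicate 2 (0.0564) or CITCO replicate 3 (0.116). With the compared libraries alone it was lost too (limma adjusted p = 0.113). The summed erythroid markers of the same groups were 4866 to 5792 FPKM with CITCO, against 6634 to 8695 FPKM with corn oil, and neutrophil markers 352 to 682 FPKM with CITCO, against 707 to 948 FPKM with corn oil; their part in the G6pdx level was not tested. In the other 3 settings G6pdx was not called, with log2 changes of 0.22 (TCPOBOP, day 5), 0.06 (TCPOBOP, day 60) and -0.27 (CITCO, day 60). Under single alternatives G6pdx was called higher with TCPOBOP at day 5 (compared libraries alone, 0.22, limma adjusted p = 0.0495). It was called lower with CITCO at day 60 without CITCO replicate 3 (-0.39, limma adjusted p = 0.0383).

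Osgin1 and Slc7a11 stood at the ends of the range. Osgin1 was not called in any of the 4 settings. In hCAR-TG livers at day 60 it stood at 246, 247 and 226 FPKM with CITCO, against 107, 146 and 305 FPKM with corn oil. A single corn oil library lay above the CITCO group, and without it the log2 change was 0.93 (limma adjusted p = 0.00672) in place of 0.50 (limma adjusted p = 0.299). Slc7a11 encodes the light chain of the cystine importer. It stood at 0.0781, 0.0818 and 0.0953 FPKM with TCPOBOP in WT livers at day 60, against 0.0288, 0.0330 and 0.0305 FPKM with corn oil, a ratio of mean FPKM of 2.76. These groups did not overlap, and in a fit without the filter the change on the log2(FPKM + 1) scale, which understates changes of low genes, was 0.07 ± 0.02 (limma adjusted p = 0.00368). In the other 3 settings its groups overlapped.

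Whether the response of a member depended on age, or on the receptor and ligand pair, was tested as the difference between 2 responses. Each pair of differences uses the same corn oil and ligand libraries, so these tests are not independent of those above. The TCPOBOP response of Nfe2l2 was larger at day 60 than at day 5 by 0.83 ± 0.14 (limma adjusted p = 0.000206) and that of Srxn1 by 0.94 ± 0.12 (limma adjusted p = 6.42e-06). These were the 2 of 9 members called there, beside 13.7% of all tested genes with a larger and 9.76% with a smaller response. For Nqo1 the difference was 0.27 (95% interval -0.21 to 0.74), for Me1 0.20 (-0.18 to 0.58) and for Gclm 0.08 (-0.13 to 0.28).

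The CITCO response differed between ages in 2 of 9 members, 1 in each direction, beside 5.37% of all tested genes higher and 4.62% lower. Gclm responded more at day 60 than at day 5, by 0.56 ± 0.10 (limma adjusted p = 0.000949), and Me1 less, by -0.75 ± 0.18 (limma adjusted p = 0.0107). Nqo1 changed by 1.31 at day 5 and 0.71 at day 60, and the difference of -0.60 was not called (95% interval -1.07 to -0.12, limma adjusted p = 0.101). It was called with array weights (-0.52, limma adjusted p = 0.0321) and with the compared libraries alone (-0.60, limma adjusted p = 0.0195).

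Between pairs, the log2 change with CITCO in hCAR-TG livers lay below that with TCPOBOP in WT livers for several members. At day 5 it was lower for Me1 by 0.88, for Srxn1 by 0.76, for G6pdx by 0.62 and for Gclm by 0.56 on the log2 scale (limma adjusted p from 9.09e-05 to 0.00518). For G6pdx the changes had opposite signs, -0.40 with CITCO and 0.22 with TCPOBOP. These were 4 of 9 members, beside 22.2% of all tested genes lower and 11.5% higher in this comparison. At day 60 it was lower for Srxn1 by 1.87, for Me1 by 1.83, for Nqo1 by 1.17, for Nfe2l2 by 0.88 and for Txnrd1 by 0.32 (limma adjusted p from 3.82e-10 to 0.0368). These were 5 of 9 members, beside 24.1% of all tested genes lower and 9.77% higher. The Txnrd1 call was lost after rescaling (-0.20, limma adjusted p = 0.177) and without the filter (-0.32, limma adjusted p = 0.0555). With the closing digit of the read file names as a factor it was lost too (-0.25, limma adjusted p = 0.0746). It was also lost, at limma adjusted p from 0.0593 to 0.11, without any of WT corn oil replicates 2 and 3, WT TCPOBOP replicates 1 and 2, hCAR-TG corn oil replicates 1 and 2 or CITCO replicates 2 and 3. For Nqo1 at day 5 the difference between pairs was -0.31 with a 95% interval from -0.79 to 0.16, and it was called with array weights (-0.52, limma adjusted p = 0.0118). The Txnrd1 difference at day 5, not called in the main fit, was called with array weights (-0.35, limma adjusted p = 0.000388). So it was without hCAR-TG corn oil replicate 3 of day 5 (-0.35, limma adjusted p = 0.0101), or without 4 libraries with pancreas or intestine transcripts (-0.40, limma adjusted p = 0.0196). Without hCAR-TG corn oil replicate 3 of day 60, the Osgin1 difference between pairs at day 60 was 1.07 (limma adjusted p = 0.00416) in place of 0.64 (limma adjusted p = 0.207).

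**Figure D3:**
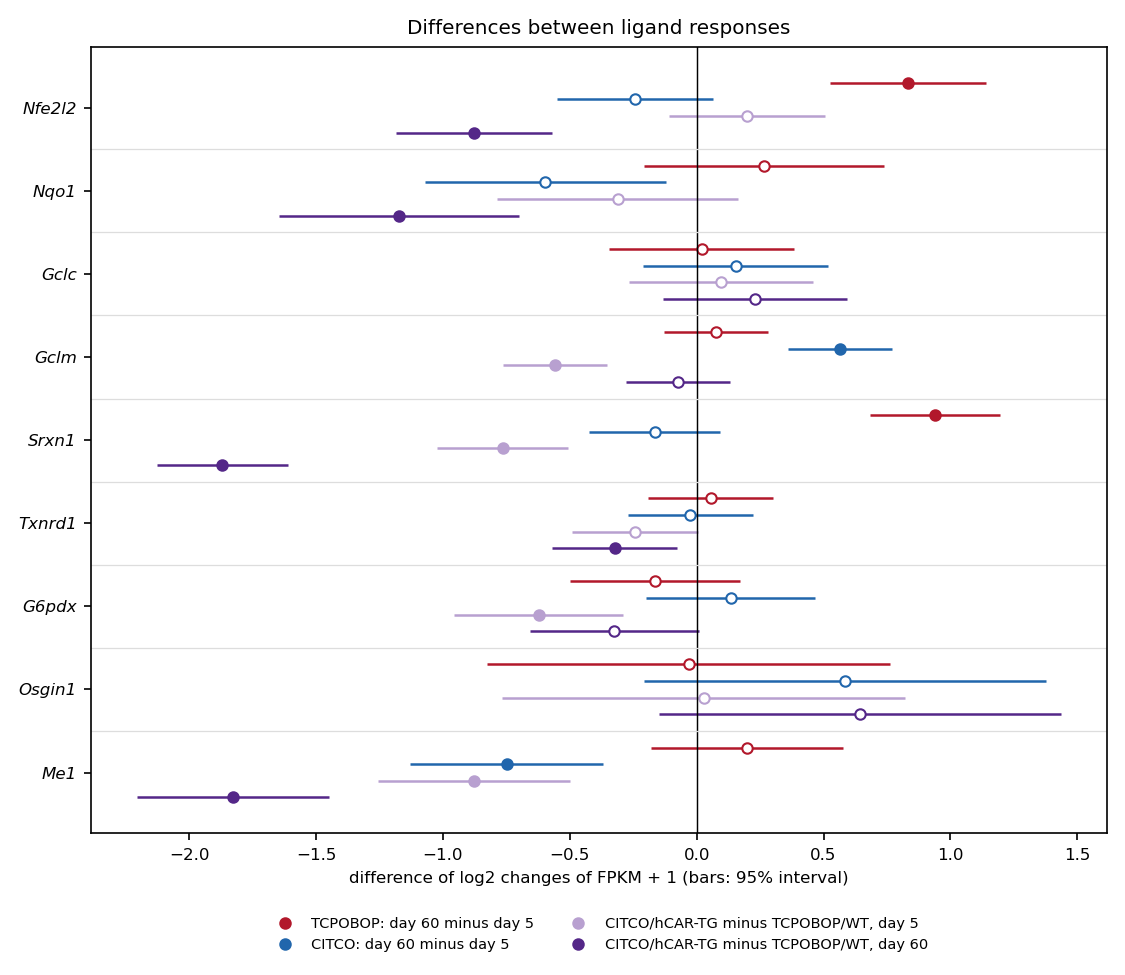
Differences between ligand responses of the 9 tested members (log2 change of FPKM + 1 in the first named setting minus that in the second), with 95% intervals; filled points are calls at limma adjusted p under 0.05. The differences at day 60 between CITCO in hCAR-TG and TCPOBOP in WT livers are the widest, from -1.87 for Srxn1 to 0.64 for Osgin1, which was not called.

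Between the ages without a ligand, the share of members called in the 2 directions together was near that of all tested genes. The balance of directions differed. More members were called higher than lower, whereas more of all tested genes were called lower than higher. In WT livers given corn oil, 5 of the 9 tested members were higher and 2 lower at day 60 than at day 5, beside 25.2% of all tested genes higher and 44.9% lower. In hCAR-TG livers given corn oil, 4 were higher and 3 lower, beside 24.3% higher and 47.3% lower. The groups did not overlap for 7 members in each genotype, as for 74.3% of all tested genes in WT and 70.5% in hCAR-TG livers. The median log2 change of all tested genes was -0.14 in WT and -0.17 in hCAR-TG livers as deposited and close to 0 after rescaling. Changes relative to that median are larger for genes that rose and smaller for genes that fell. Of all called genes, 36% were higher as deposited and 49.5% after rescaling in WT livers, and 33.9% and 50.2% in hCAR-TG livers.

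Me1 changed most with age. It stood at 52.6, 42.4 and 43.3 FPKM at day 60 in WT livers, against 6.43, 5.12 and 4.29 FPKM at day 5, a ratio of mean FPKM of 8.73 (log2 change 2.92 ± 0.13, limma adjusted p = 3.52e-14, and 3.06 relative to the median gene). In hCAR-TG livers the ratio was 9.06 (2.94 ± 0.13, limma adjusted p = 2.55e-14). G6pdx ran the other way, with 2.04, 1.98 and 1.99 FPKM at day 60 in WT livers, against 5.30, 6.03 and 5.78 FPKM at day 5 (-1.16 ± 0.11, limma adjusted p = 9.19e-09). In hCAR-TG livers it changed by -1.20 ± 0.11 (limma adjusted p = 4.46e-09). Both genes of NADPH supply thus stood apart by age without overlap in either genotype.

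Nqo1 was lower at day 60 in WT (-0.74 ± 0.16) and in hCAR-TG livers (-0.62 ± 0.16). Gclc (0.51 and 0.61), Txnrd1 (0.61 and 0.38) and Srxn1 (0.30 and 0.54) were higher at day 60 in WT and in hCAR-TG livers (limma adjusted p from 1.12e-06 to 0.00361). With the closing digit of the read file names as a factor, the WT age calls of 5 members were lost. The changes were then 0.15 for Gclc, 0.26 for Txnrd1, -0.055 for Srxn1, -0.93 for Nqo1 and 0.32 for Nfe2l2 (limma adjusted p from 0.0667 to 0.819). That fit links the WT corn oil groups of the 2 ages only through libraries of other groups, since they share no digit. Nfe2l2 was called higher at day 60 in WT livers (0.25 ± 0.10, limma adjusted p = 0.0359), a call lost without WT corn oil replicate 1 or 2 of day 5 (limma adjusted p = 0.0718 and 0.121) or replicate 1 or 3 of day 60 (0.0692 and 0.114). It stood at 0.05 ± 0.10 in hCAR-TG livers (limma adjusted p = 0.658). Gclm was called lower at day 60 in hCAR-TG livers (-0.16 ± 0.07, limma adjusted p = 0.04), and its sign turned after rescaling (0.06). That call was lost, at limma adjusted p from 0.0644 to 0.124, without hCAR-TG corn oil replicate 1 or 2 of day 5 or replicate 1 or 3 of day 60. Summed erythroid markers were 843 to 1163 FPKM at day 60, against 2797 to 3834 FPKM at day 5 in WT livers, and neutrophil markers 2.27 to 3.63 FPKM at day 60, against 187 to 484 FPKM at day 5. Their part in these changes was not tested. Slc7a11 was at 0.0195 to 0.0330 FPKM at day 60, against 0.0501 to 0.0965 FPKM at day 5 in the corn oil groups of both genotypes.

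Between the genotypes, the share of members called at day 5 was near that of all tested genes. Of the 9 tested members, G6pdx was called between the corn oil groups at day 5, with 7.96, 8.06 and 8.89 FPKM in hCAR-TG livers against 5.30, 6.03 and 5.78 FPKM in WT livers (0.47 ± 0.11, limma adjusted p = 0.00804), beside 8.29% of all tested genes higher and 2.27% lower. The corn oil groups did not overlap for 1 member at day 5 and 2 at day 60, as for 21.7% and 24.9% of all tested genes. Summed erythroid markers of these groups were 6634 to 8695 FPKM in hCAR-TG livers, against 2797 to 3834 FPKM in WT livers. Neutrophil markers stood at 707 to 948 FPKM in hCAR-TG livers, against 187 to 484 FPKM in WT livers. All 4 tested erythroid and all 6 neutrophil markers were called higher. Their part in the G6pdx level was not tested. The count of called members was 3 without WT corn oil replicate 3 and 2 without hCAR-TG corn oil replicate 3. Txnrd1 was called higher in both fits (0.29 and 0.37, limma adjusted p = 0.0472 and 0.00205), and Gclm in the first (0.27, limma adjusted p = 0.00413). Txnrd1 was also called with the replicate block (0.26, limma adjusted p = 0.0479) and with array weights (0.33, limma adjusted p = 0.000157). So it was without 4 libraries with pancreas or intestine transcripts (0.37, limma adjusted p = 0.00807). At day 60 G6pdx (0.43 ± 0.11, limma adjusted p = 0.0272) and Srxn1 (0.32 ± 0.09, limma adjusted p = 0.0317) were called higher in hCAR-TG livers, beside 3.05% of all tested genes higher and 1.85% lower. Summed erythroid markers at day 60 were 667 to 844 FPKM in hCAR-TG livers against 843 to 1163 FPKM in WT livers. Summed neutrophil markers were 8.89 to 10.8 FPKM in hCAR-TG livers, against 2.27 to 3.63 FPKM in WT livers at day 60, with 1 of 6 called higher. The part of either in these levels was not tested. With the closing digit of the read file names as a factor the day 60 G6pdx call was lost (0.45, limma adjusted p = 0.4). Neither day 60 call held when the 6 compared libraries were fitted alone (limma adjusted p = 0.0993 for G6pdx and 0.059 for Srxn1), and at least 1 of the 2 was lost without any of WT corn oil replicates 1, 2 and 3 or hCAR-TG corn oil replicates 1 and 2.

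**Figure D4:**
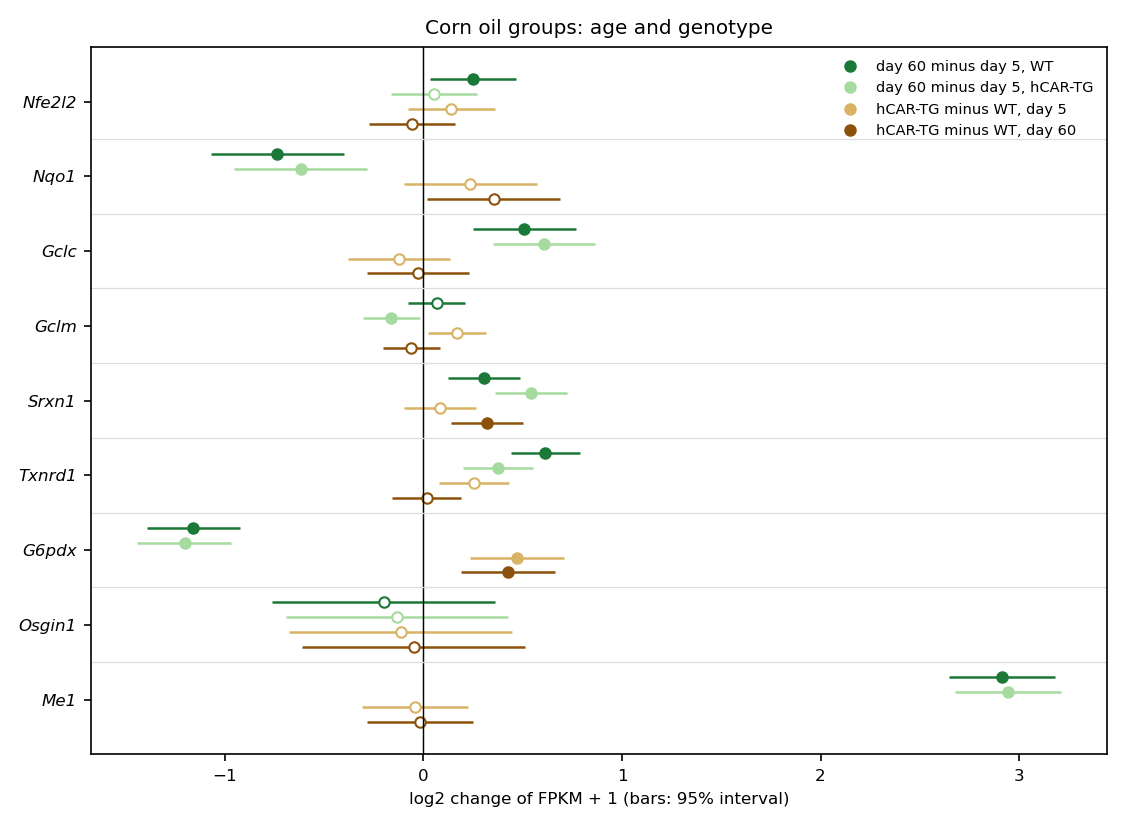
Log2 change of FPKM + 1 of the 9 tested members between corn oil groups, day 60 minus day 5 in each genotype and hCAR-TG minus WT at each age, with 95% intervals; filled points are calls at limma adjusted p under 0.05. Me1 rose by 2.92 and 2.94 with age while its hCAR-TG minus WT changes lie near 0.

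Regulators and partners of NRF2 moved in both directions. Of 11 listed genes, 4 rose with TCPOBOP in WT livers at day 5 (median 0.19), and 6 rose and 2 fell at day 60 (median 0.14). Over all tested genes 24.6% rose and 11.3% fell with TCPOBOP at day 5, and 31.4% and 15.8% at day 60. With CITCO 8.27% rose and 8.82% fell at day 5, and 4.4% and 3.97% at day 60. Counts of this list and of those that follow are to be read beside these shares. Rescaled, the counts at day 60 were 4 and 2, and at day 5 they were 3 higher and 1 lower. Keap1, which holds NRF2, rose by 0.61 ± 0.09 at day 5 (limma adjusted p = 2.47e-05) and by 0.45 ± 0.09 at day 60 (limma adjusted p = 0.000353). Sqstm1, whose protein p62 can take KEAP1 into autophagy, rose by 0.73 and 0.66, and Nfe2l3, which encodes the related factor NRF3, by 1.30 and 0.94. With CITCO 1 of the 11 was called at each age. At day 5 it was Maff, a small MAF gene, which fell by 0.82 (limma adjusted p = 0.00939). At day 60 it was Sqstm1, which rose by 0.44 (limma adjusted p = 0.00258), while Keap1 stood at 0.08 at day 5 and -0.01 at day 60.

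Other listed NRF2 targets mostly rose with TCPOBOP. Of 19 tested genes, 16 rose and 1 fell at day 5 (median log2 change 0.79), and 18 rose at day 60 (median 0.97), where Blvrb was the gene not called. Rescaled, the day 60 counts were 16 higher and 1 lower. The efflux pump gene Abcc4 had the lowest adjusted p at both ages (3.38 ± 0.08 at day 5 and 2.71 ± 0.08 at day 60). The epoxide hydrolase gene Ephx1 rose by 2.65 and 2.31. Abcc3 rose by 3.90 at day 5 and Abcc2 by 1.35 at day 60, both genes of pumps for conjugated anions. With CITCO 8 of 19 rose and 1 fell at day 5 (median 0.21), and 11 rose at day 60 (median 0.34), among them Ephx1 (0.98 at day 5 and 1.47 at day 60), Abcc3 (1.28 and 1.14) and Ugdh, which makes UDP-glucuronate (0.91 at day 60). Several of these genes are also known targets of CAR itself.

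Genes that supply NADPH rose with TCPOBOP in 5 of 10 cases at day 5 (median 0.24). Of all tested genes 24.6% rose at day 5, and 31.4% rose and 15.8% fell at day 60. At day 60 8 rose and 1 fell (median 0.60, and 6 higher and 1 lower rescaled). Pgd, the third enzyme of the pentose phosphate pathway, had 53.7 ± 2.81 FPKM with TCPOBOP and 11.2 ± 1.53 FPKM with corn oil at day 60 (2.17 ± 0.10, limma adjusted p = 1.71e-13). Tkt (1.31), a transketolase of the same pathway, and Idh1 (0.86), a cytosolic NADP-dependent dehydrogenase, rose with it, whereas G6pdx at the head of the pathway stood at 0.06. With CITCO 1 of the 10 rose at each age, Idh1 at day 5 (0.28) and Tkt at day 60 (0.38).

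Genes of glutathione synthesis and use rose in 9 of 14 cases and fell in 2 with TCPOBOP at day 5, and in 7 and 3 at day 60 (medians 0.38 at both ages). Of all tested genes 24.6% rose and 11.3% fell at day 5, and 31.4% and 15.8% at day 60. Gpx4, which reduces lipid peroxides, rose by 1.19 and 1.25, and Glrx, a glutaredoxin gene, by 1.11 and 0.85. Ggt1, which breaks down glutathione outside the cell, rose by 3.77 at day 5. Gsr, glutathione reductase, rose by 0.95 at day 60. With CITCO 4 rose and 1 fell at day 5, and 3 rose and 1 fell at day 60 (medians 0.19 and 0.06). Cth, which makes cysteine, rose by 1.43 ± 0.08 at day 5 and 0.51 ± 0.08 at day 60.

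Peroxiredoxin, thioredoxin, catalase and superoxide dismutase genes rose in 8 of 13 cases with TCPOBOP at day 5, and at day 60 7 rose and 2 fell (medians 0.22 and 0.18). Of all tested genes 24.6% rose at day 5, and 31.4% rose and 15.8% fell at day 60. The balance of the list depended on scale, with 8 higher and 2 lower at day 5 and 5 higher and 5 lower at day 60 after rescaling. Txn1, thioredoxin, rose by 0.62 and 0.85, and Prdx3, a mitochondrial peroxiredoxin, by 0.85 at day 60, while the catalase gene Cat fell by 0.67. With CITCO 1 rose and 2 fell at day 5, Txnip, an inhibitor of thioredoxin, by 0.90, and Txn1 alone was called at day 60 (0.33 ± 0.06, limma adjusted p = 0.000864). Reads of Txn1, Prdx1, Fth1 and Ftl1 may be shared with near-identical copies, so their levels are uncertain. Some genes stand in more than 1 list (Gss, Gsr, Txn1 and Prdx1).

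**Figure D5:**
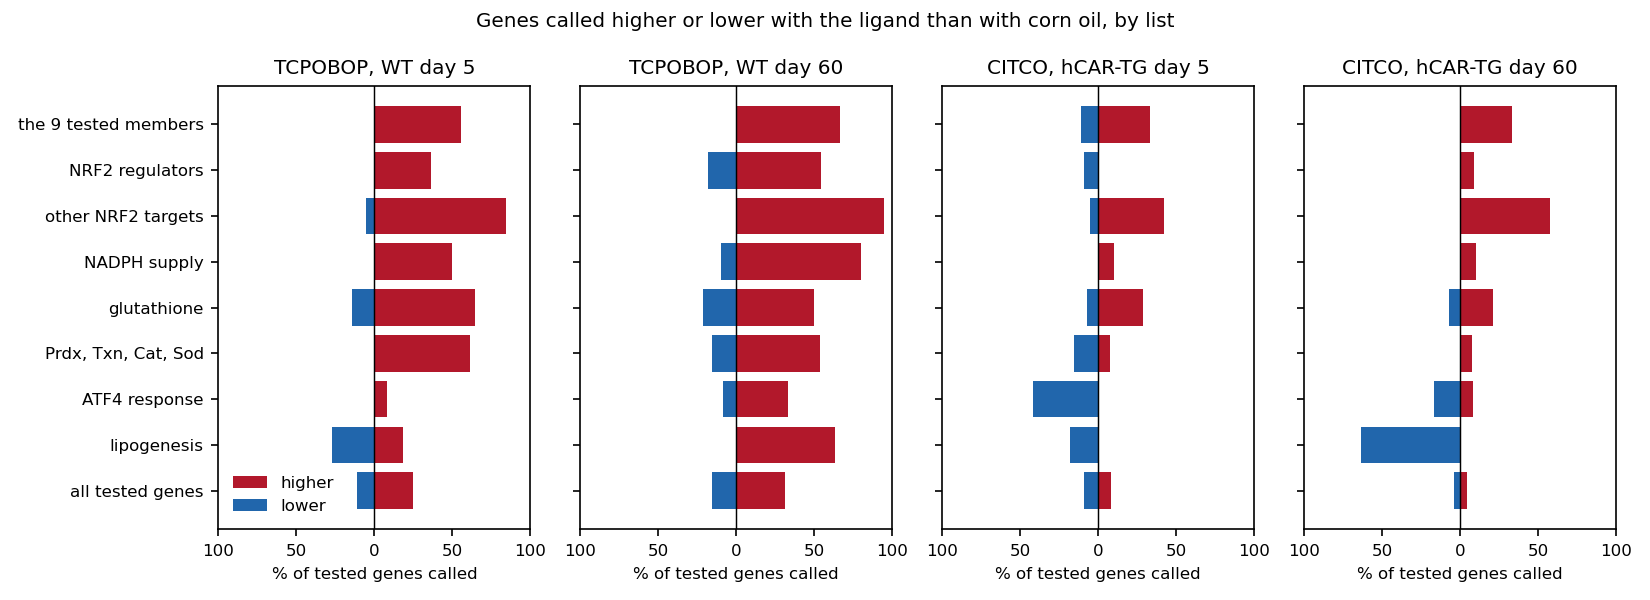
Percent of tested genes called higher (right) or lower (left) with the ligand than with corn oil, for the 9 tested members, 7 other gene lists and all 12282 tested genes, in the 4 settings. Other NRF2 targets are called higher in 16, 18, 8 and 11 of 19 genes from left to right, and of 11 lipogenic genes 7 are higher with TCPOBOP and 7 lower with CITCO at day 60.

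Slc7a11 and parts of glutathione supply are also induced by ATF4, and Me1 also belongs to fatty acid synthesis, so both programmes were read beside the members. The shares of all tested genes given above for each ligand and age stand beside these counts too. Of 12 ATF4 genes, 1 rose with TCPOBOP at day 5 (Trib3, 2.89), and 4 rose and 1 fell at day 60 (Atf3 by 1.56 and Psat1 by 0.77 among those that rose). With CITCO 5 fell at day 5 (Phgdh by 0.70), and 1 rose and 2 fell at day 60. Of 11 lipogenic genes, 7 rose with TCPOBOP in WT livers at day 60 (median 1.11), including Elovl6 (2.62) and Pnpla3 (2.27), where Me1 rose too. At day 5, where Me1 rose by 1.37, 2 rose and 3 fell (median -0.04), with Srebf1 lower by 0.93. With CITCO 2 fell at day 5 and 7 at day 60 (median -0.60), where Scd1 fell by 1.60 and Acly by 0.94 and Me1 was at -0.26.

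The genes most alike in pattern were ranked by the lower of 2 Pearson correlations of log2(FPKM + 1), over the 12 libraries of each age, which fall into 4 treatment groups and share those contrasts. Foxn2 (0.94 at both ages), Ndfip2 (0.92 and 0.93) and Atg12 (0.91 and 0.92) were most like Nfe2l2. Slc25a5 (0.98 and 0.95), Gsta2 (0.96 and 0.95) and Mtch2 (0.95 and 0.97) were most like Nqo1, and Abcc4 (0.98 and 0.99), Psmc1 (0.99 and 0.98) and Psmc4 (0.98 and 0.98) most like Srxn1. Psmc1 and Psmc4 encode ATPase subunits of the proteasome. Gsta2 and Slc25a5 have close relatives that may share reads.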

How the data were processed

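Liver RNA was extracted with RNA Bee and sequenced from TruSeq stranded mRNA libraries, per the labels' protocols. The authors deposited 1 table per library with an FPKM value, its interval and a status for each gene, per the file headers. The build was mm10, per the submitters' processing notes. The aligner, quantification tool and annotation are not given in the sources used here, and depth is unknown. Of 24885 entries with 24342 symbols, those of 281 repeated symbols were summed, except 27 date-like entries kept apart by locus. No member was among 5 genes with a failed estimate, which were left out (24339 kept).

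Values were tested as log2(FPKM + 1) with limma 3.58.1 (R 4.3.3; lmFit, contrasts, eBayes with trend and robust) over the 12282 genes that reached 1 FPKM in 3 or more of the 24 libraries. The model had 1 mean for each of 8 groups and left 16 degrees of freedom. All 12 comparisons used two-sided tests with Benjamini-Hochberg adjustment. The pseudocount understates changes of low genes. The fit was tested on simulated data. Alternatives changed the scale (median of ratios), the pseudocount (0.1), the filter (none, or 5 FPKM), the weights, the libraries fitted (the compared ones alone, or all but 1) or added a factor (replicate block, closing digit of the read file names). A fit without 4 day 5 libraries that held pancreas or intestine transcripts was chosen after seeing the data. Other day 5 libraries held such transcripts too and stayed in that fit.

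The members and lists were chosen with earlier results of these data known. Other genes were named by rule: up to 3 called genes of lowest adjusted p per list and ligand comparison, the 3 genes most like Nfe2l2, Nqo1 and Srxn1, and Cyp2b10 and Nr1i3. Overlapping genes came from the GENCODE annotation. Tables and figures were made with Python 3.11.15, pandas 2.3.3 and matplotlib 3.10.9.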

Additional observations from a re-analysis of the deposited data

Results flagged for a closer look

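The 13 results below are listed because the difference between 2 responses passed its own test in the limma fit. Of all tested genes, 13.7% were called higher and 9.76% lower for the TCPOBOP difference between ages. For the CITCO difference between ages the shares were 5.37% higher and 4.62% lower. For the difference between pairs they were 11.5% higher and 22.2% lower at day 5, and 9.77% and 24.1% at day 60. Values are differences of log2 changes of FPKM + 1, ± SE where given, with adjusted p from limma.

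Between ages, the TCPOBOP response in WT livers at day 60 minus that at day 5 was 0.83 ± 0.145 for Nfe2l2 (limma adjusted p = 0.000206) and 0.94 ± 0.122 for Srxn1 (limma adjusted p = 6.42e-06). The CITCO response in hCAR-TG livers at day 60 minus that at day 5 was 0.56 ± 0.0967 for Gclm (limma adjusted p = 0.000949) and -0.75 ± 0.178 for Me1 (limma adjusted p = 0.0107).

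Between receptor and ligand pairs, the CITCO response in hCAR-TG livers minus the TCPOBOP response in WT livers at day 5 was -0.56 for Gclm, -0.76 for Srxn1, -0.62 for G6pdx and -0.88 for Me1. At day 60 it was -0.88 for Nfe2l2, -1.17 for Nqo1, -1.87 for Srxn1, -0.32 for Txnrd1 and -1.83 for Me1. The Txnrd1 difference lost its call in 8 of the 12 fits that left out a library.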

How the results depend on the processing

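Of 1755 alternative fits of single members, 1679 stayed on the same side of the threshold (89 of these, all of changes not called, with the other sign), 42 lost a call, 32 gained one and 2 turned the sign of a called change. Those 2 were Srxn1 with age in WT corn oil livers (-0.055, limma adjusted p = 0.819, closing digit of the read file names as a factor) and Gclm with age in hCAR-TG corn oil livers (0.063, limma adjusted p = 0.372, rescaled). The causes were not tested. With that digit as a factor, 7 members were called for CITCO at day 5 (4 without it), 2 for age in WT livers (7 without it) and 1 for genotype at day 60 (2 without it). That last count was 0 in limma with the compared libraries alone, where 2 members had an unadjusted p under 0.05. For genotype at day 5, with 1 call, array weights gave 5 and leaving out 4 of the libraries with pancreas or intestine transcripts gave 2. Leaving out single libraries gave 4 to 5 calls for TCPOBOP at day 5, 6 at day 60, and 3 to 4 for CITCO at each age. It gave 2 for the TCPOBOP difference between ages, 2 to 3 for that of CITCO, and 4 to 5 at day 5 and 4 to 6 at day 60 for the difference between pairs. It gave 1 to 3 for genotype at day 5, 0 to 2 at day 60, 6 to 8 for age in WT and 6 to 7 in hCAR-TG livers. Read depth is unknown, so its limits cannot be given.

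The labels do not say that replicate numbers pair the libraries, and the main fit did not pair them. Of 24 correlations between deviations of libraries with the same number, 5 were over 0.1 (range -0.18 to 0.264). With 3 libraries per group, these values cannot settle whether the libraries were paired. With the replicate block, 2 members were called for genotype at day 5 in place of 1.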
